A study of Homo sapiens with 18 samples.

Results

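Repeated sequences are scattered through the introns and exons of most human genes, and RNA made from such a gene carries copies of Alu, L1, L2, MIR and other repeat families. The repeat copies described here lie inside 11 genes that are classic targets of the transcription factor p53: MDM2, CDKN1A, SESN1, FAS, TP53INP1, XPC, RRM2B, ZMAT3, DDB2, PPM1D and TNFRSF10B. A copy was taken when its whole span fell within the hg19 window of 1 of these genes, whatever the name of the repeat. This gave 770 of the 2404193 copies listed in the count table of the 5-fluorouracil (5-FU) libraries and 676 of the 1996647 listed in that of the Nutlin libraries, with 671 in both and 775 in either. The rule reads position alone.

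The cells were IMR90 fibroblasts, a long established human line from lung, wild type by the labels, and total RNA was sequenced from 18 samples in 9 groups of 2. The 2 untreated columns of the Nutlin table hold the same values in every row and were counted there as 1 sample. Nutlin was given at 5 µM for 6 h and 5-FU at 375 µM for 6, 12 or 24 h. Each treatment had its own DMSO group of the same time and volume, and the untreated cells received fresh medium 12 h before RNA was taken. No source used here says that the 2 samples of a group came from separate cultures, so the p-values measure the spread between these samples, which may be technical. No group of cells lacking p53 is among the samples, and dependence on p53 was not tested. In bulk RNA, fewer cells of a kind and less RNA per cell cannot be told apart.

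p53 is kept low in unstressed cells by the ubiquitin ligase MDM2, which binds it and marks it for destruction. Nutlin occupies the pocket of MDM2 that holds p53, whereas 5-FU disturbs nucleotide supply and is built into RNA and DNA. Stabilised p53 binds response elements near its target genes. Its targets include its own inhibitors MDM2 and PPM1D, the cell cycle inhibitor CDKN1A (p21), the death receptors FAS and TNFRSF10B, the stress protein TP53INP1, the nucleotide excision repair factors XPC and DDB2, the ribonucleotide reductase subunit RRM2B, the stress-responsive SESN1 and the RNA-binding protein ZMAT3. A repeat copy inside such a gene is read out with the gene's own transcript. The row of a copy does not tell reads of that transcript from reads that start in the copy, and its name does not give the strand of the reads.

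The promoters of 3 of the genes are shown because they hold the closest matches to the p53 response element among the genes searched. The element is a pair of half-sites of 10 bases, which read alike on both strands, and the search kept the central C and G of each half-site and allowed a spacer of up to 3 bases. Among 8 of the 11 genes searched, with 17 promoter windows of 300 bases from RefSeq (GRCh38.p14), MDM2, FAS and DDB2 had a match with at most 2 mismatches over its 20 bases. Such a match is present in 0.971% of all 35116 promoter windows, and a match without mismatch in 0.0199%. The windows are chr12:68808767-68809066 for one of the starts of MDM2, chr10:88991181-88991480 for FAS and chr11:47214724-47215023 for DDB2, all on the plus strand, with the 2 half-sites in capitals.
MDM2: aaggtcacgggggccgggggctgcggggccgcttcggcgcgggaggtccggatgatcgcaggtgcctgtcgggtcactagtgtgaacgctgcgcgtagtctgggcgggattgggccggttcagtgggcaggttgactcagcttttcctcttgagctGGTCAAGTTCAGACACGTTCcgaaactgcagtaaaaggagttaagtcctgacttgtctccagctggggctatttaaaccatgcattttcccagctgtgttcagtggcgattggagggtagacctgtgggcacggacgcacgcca
FAS: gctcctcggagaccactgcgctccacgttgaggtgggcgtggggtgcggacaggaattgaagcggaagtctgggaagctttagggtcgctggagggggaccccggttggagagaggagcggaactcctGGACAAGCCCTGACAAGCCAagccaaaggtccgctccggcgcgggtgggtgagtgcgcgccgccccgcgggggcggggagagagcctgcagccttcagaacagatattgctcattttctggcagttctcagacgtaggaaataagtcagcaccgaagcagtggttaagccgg
DDB2: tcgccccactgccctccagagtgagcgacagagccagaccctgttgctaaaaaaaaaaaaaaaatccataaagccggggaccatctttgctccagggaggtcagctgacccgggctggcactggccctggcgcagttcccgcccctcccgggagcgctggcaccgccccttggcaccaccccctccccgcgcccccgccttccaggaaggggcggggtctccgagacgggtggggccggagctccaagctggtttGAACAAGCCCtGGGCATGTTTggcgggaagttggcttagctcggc
The MDM2 and FAS pairs have 2 mismatches each and no spacer, and the DDB2 pair has 0 mismatches with a spacer of 1 base. A match describes these letters, and the absence of one in the other windows says only that the letters are not in those windows.

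Levels are given as CPM, the counts of a copy per 1000000 counts of its library after correction by the trimmed mean of M values (TMM), and only within a table. Library totals ran from 2412334 to 6290320 counts in the 5-FU table and from 9109885 to 11880265 in the Nutlin table, of which 1618055 to 4164168 and 1787724 to 2474410 lay outside structural RNA repeats. Of those counts, the 11 windows took 0.249% to 0.277% in every DMSO and untreated library of both tables. They took 3.07% and 3.01% after Nutlin, 0.672% and 0.704% after 6 h of 5-FU, and 1.17% and 1.24% after 12 h. The 2 libraries of 5-FU for 24 h stood further apart, at 1.23% in replicate 1 and 0.844% in replicate 2.

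Most counts of the windows came from a few copies near the 3' end of the genes. By distance from the gene's 5' end in the GENCODE 29 models, a placement made after the values had been seen, 19 copies lay in the last exon of 7 genes, which is the exon that carries the polyadenylation site. MDM2 had 7 of them, RRM2B and ZMAT3 had 3 each, TP53INP1 and TNFRSF10B had 2 each, and CDKN1A and FAS had 1 each. These 19 copies cover 1.70% of the repeat length in the 5-FU table and held 87.9% of the windows' counts there, and in the Nutlin table they held 93.1% of counts with 1.83% of the length. The single last-exon copy of CDKN1A, an L2b of 127 bp, carried 97.9% of that window's counts in the Nutlin libraries and 94.6% in those of 5-FU. The lowest share among the 7 genes was that of TP53INP1, with 86.0% and 77.6%. By distance from the gene's 5' end, the last exon of DDB2 began beyond its window. The transcript of that model spans 24299 bp and the window 24281 bp, so this placement depends on the 5' end used. No copy was placed in the last exon of SESN1, XPC or PPM1D. DDB2, SESN1, XPC and PPM1D are the 4 genes whose windows held least. They had 283 to 668 counts in all libraries of the Nutlin table together, against 74462 for MDM2.

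**Figure D1:**
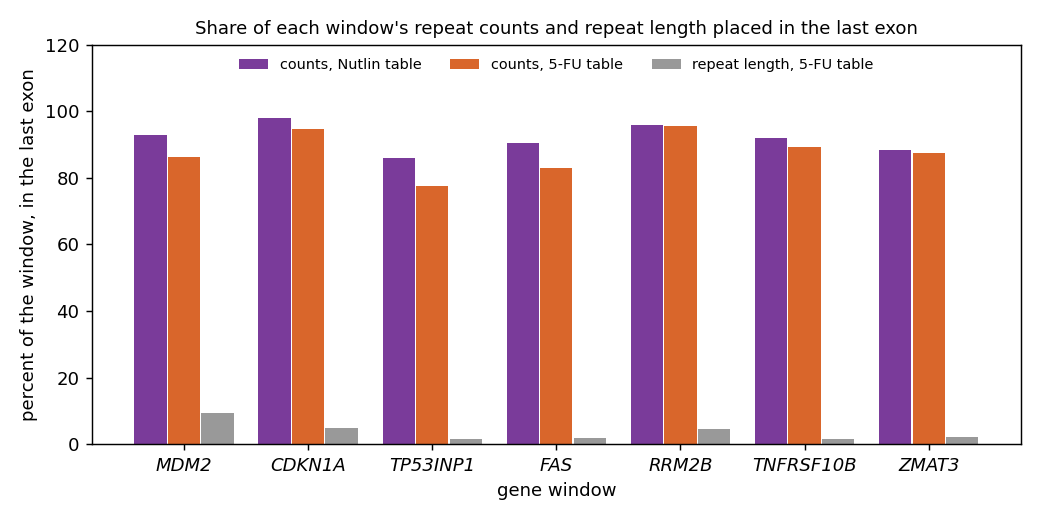
Percent of each window's repeat counts placed in the last exon, for the 7 genes with a copy there, as bars for the Nutlin table (purple) and the 5-FU table (orange), with the percent of repeat length in grey (5-FU table). In CDKN1A the last exon held 97.9% and 94.6% of counts, and the share of counts was above the share of length in all 7 genes.

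Each copy with enough counts was tested across its whole table with edgeR's quasi-likelihood test, and a copy is called higher or lower here when its Benjamini-Hochberg adjusted p was under 0.05. The filter on low counts left 88 of the 676 copies for the Nutlin comparison and 105 of the 770 for 5-FU, 79 of them in both tables. Counts over these copies are therefore not counts over all copies of the windows. Copies of 1 gene share its transcript and are not replicates of a treatment.

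After Nutlin, 82 of the 88 tested copies were called higher and 0 lower, where 5.36% of all 21328 rows tested were called higher and 4.21% lower (3.91% and 5.96% with scaling by library size alone). Many of the 88 passed the filter through the Nutlin libraries, and 66 of them had under 10 counts in both DMSO libraries, 65 of these upstream of the last exon. The median log2 fold change, which this filter can raise, was 4.31, against 0.01 over all rows. It was 4.13 with the 7 copies that had no count in either DMSO library set at their lower bound (3 counts per library). Over the 19 copies with 10 or more counts in every library it was 2.12, and over 632 copies with no filter 2.34. Of those 19 copies 18 lay in the last exon, where MDM2 had 7, whereas MDM2 supplied 54 of the 88. The sets thus differ in their genes as well as in their counts. By gene, the called copies were 53 of 54 in MDM2, 13 of 13 in CDKN1A, 5 of 5 in TNFRSF10B, 4 of 4 in ZMAT3, 3 of 4 in TP53INP1, 3 of 3 in RRM2B and 1 of 1 in FAS. The 3 tested copies of XPC and the 1 of DDB2 were not called, none of them at an unadjusted p under 0.05 and none by DESeq2. The other two copies not called were an AluSc8 of MDM2 (chr12:69220675-69220976, adjusted p = 0.062) and a MER21B of TP53INP1 (chr8:95950592-95951359, adjusted p = 0.0941). No copy of SESN1 or PPM1D had enough counts to be tested. Over all windows DESeq2 called 61 copies higher and 0 lower, and 0 were lower at an unadjusted p under 0.05.

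With 5-FU, 20 of 105 tested copies were called higher after 6 h, 53 after 12 h and 53 after 24 h, and 0 were called lower at any time. The share of all 63602 rows called higher was 0.0896% after 6 h, 5.44% after 12 h and 2.42% after 24 h, and the share called lower was 0.011%, 4.27% and 1.82%. With scaling by library size alone, the shares of all rows were 3.23% higher and 7.39% lower after 12 h and 1.81% and 2.74% after 24 h, and with factors taken from all rows 8.17% and 3% after 12 h, whereas 0 copies of the windows were lower under either. The median log2 fold change of the tested copies was 1.61, 2.51 and 1.94 at the 3 times, and 1.80 at 12 h with the 16 copies lacking DMSO counts at their bound, whereas over all rows it was -0.00, -0.04 and 0.00. These medians rest on the filter as well, since 62, 82 and 42 of the 105 copies had under 10 counts in both DMSO libraries. They were 1.30, 1.58 and 1.54 over the 18 copies with 10 or more counts in every library, all of them in the last exon. Over 747 copies with no filter they were 0.63, 0 and 0.65. Against the DMSO libraries of 6 and 24 h, 52 copies were called higher at 12 h and the median was 1.93. All 20 copies called after 6 h were also called after 12 h and 24 h, and 45 were called at both later times. Such overlaps were not counted over all rows. At an unadjusted p under 0.05, 0, 1 and 0 copies were lower at 6, 12 and 24 h, and DESeq2 called 0 lower at each time. The 1 copy, picked out after its values were seen, was an L1PB1 of ZMAT3 (chr3:178767806-178770632) with 3 and 1 counts after 12 h against 5 and 10 with DMSO (edgeR adjusted p = 0.109). The counts of calls moved with single libraries. Without 1 DMSO library the 6 h count was 9 (replicate 1) or 7 (replicate 2), and without 5-FU replicate 2 it was 9. The 12 h count was 35 without DMSO replicate 1. The 24 h count was 32 without DMSO replicate 1 and 30 without DMSO replicate 2.

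Over both drugs, 86 copies were called in at least 1 comparison, and 20 were called in all 4. Of these 20, 11 lay in MDM2, 6 in CDKN1A, 2 in TP53INP1 and 1 in FAS, and 11 of the 20 were last-exon copies. Of the 79 copies tested in both tables, 75 were called after Nutlin, 57 at 1 or more times of 5-FU, and 57 after both. Overlaps between comparisons were not counted over all rows, so no share stands beside these counts. Many of the 79 passed the filters through the drug libraries, and whether the 2 drugs share more calls here than elsewhere was not tested. No called copy moved against the sum of its window, but each sum includes the copy itself and is no independent check. All 19 last-exon copies were called after Nutlin, 11 after 6 h of 5-FU, 18 after 12 h and 19 after 24 h, whereas upstream of the last exon the calls were 63 of 69 and then 9, 35 and 34 of 86. The median log2 fold change of the last-exon copies was 2.33 after Nutlin and 1.61, 1.73 and 1.69 after 6, 12 and 24 h of 5-FU. That of the upstream copies was 4.48 (4.24 with copies lacking DMSO counts at their bound), 1.61, 2.90 (1.85 at the bound) and 2.01. Most of these copies had under 10 counts in both DMSO libraries after Nutlin (65 of 69), 6 h (62 of 86) and 12 h (81 of 86). The 2 parts also differ in their genes, with MDM2 supplying 47 of the 69 upstream and 7 of the 19 last-exon copies tested with Nutlin. Within MDM2 the Nutlin medians were 4.39 in the last exon and 4.68 upstream (4.49 at the bound), and within CDKN1A 3.83 and 4.32 (4.05). They were 1.86 and 2.75 in TNFRSF10B, 2.55 and 4.01 in TP53INP1, and 1.03 and 2.51 in ZMAT3. These upstream medians rest on the 3 of 83, 2 of 27 and 1 of 62 listed upstream copies that passed the filter. These copies passed it through the Nutlin libraries, which can raise the upstream medians, so the 2 parts cannot be compared by them.

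**Figure D2:**
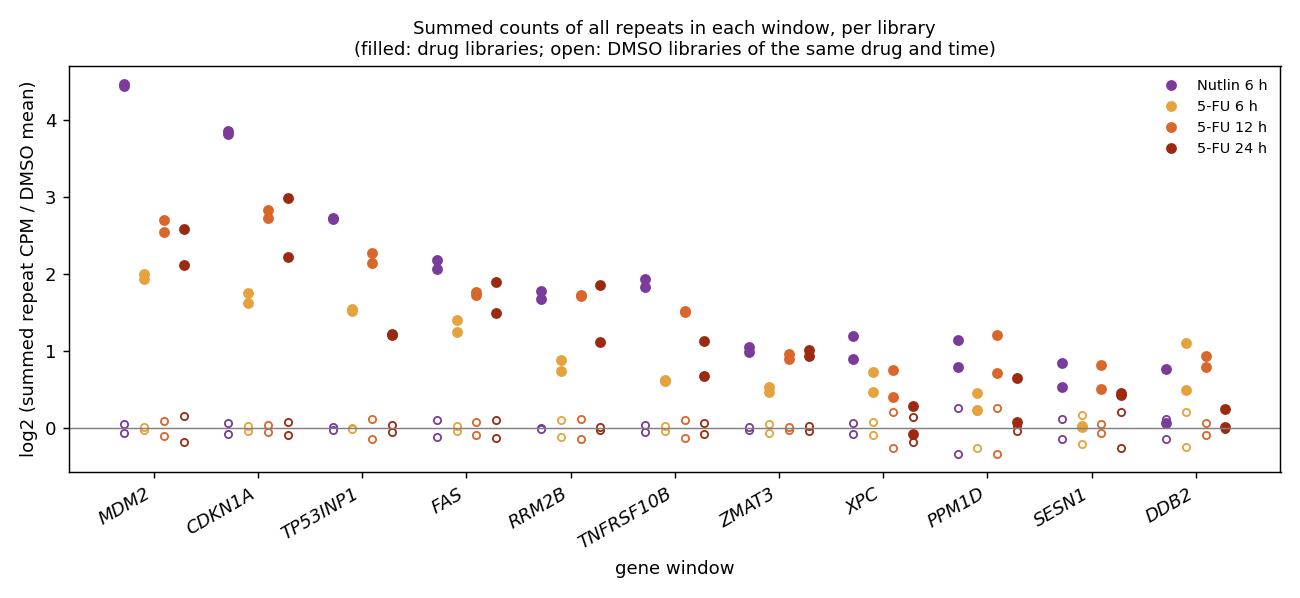
Sum of all repeat counts of a window per library, as log2 of CPM over the mean of the matched DMSO libraries, with drug libraries filled and DMSO libraries open (2 of each per comparison). MDM2 and CDKN1A lie highest after Nutlin, at 21.9 and 14.3 times the DMSO mean, and no window lay below its DMSO libraries in any of the 4 comparisons.

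The sums over whole windows use every copy, tested or not, and carry no p. With 2 libraries against 2, an exact permutation test cannot give a p below 0.333. Both drug libraries lay above both DMSO libraries in 10 of 11 windows after Nutlin, in 10 after 6 h of 5-FU, in 11 after 12 h and in 10 after 24 h, with DDB2, SESN1 and XPC the exceptions in that order. The sum was at least 2-fold that of DMSO in 8, 4, 6 and 5 of the 11 windows. Neither count was made over windows elsewhere in the genome. How common such separation or such ratios are there was therefore not tested. The DMSO libraries of 12 h were low upstream of the last exon: over all windows those copies summed to 146 and 141 CPM there, against 217 to 298 CPM in the DMSO libraries of 6 and 24 h. Against the latter, the 12 h ratio of the upstream copies was 2.76 in place of 4.86, and that of the last-exon copies 5.00 in place of 4.92. Of the 11 windows 7 then lay above all 4 controls, whereas SESN1 (0.94 in place of 1.60), XPC (0.937 in place of 1.51), DDB2 (1.28 in place of 1.83) and PPM1D overlapped them. What set these controls apart was not tested. After Nutlin the 588 untested copies summed to 101 and 129 CPM, against 39.5 and 34.0 CPM with DMSO.

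MDM2 is both a target of p53 and its main inhibitor, and its window (chr12:69201950-69239330, plus strand) held 74 copies. They summed to 169 and 155 CPM in the DMSO libraries and to 3573 and 3509 CPM after Nutlin, a ratio of 21.9. After 6 h of 5-FU the sums were 1574 and 1653 CPM against 407 and 417 CPM with DMSO, a ratio of 3.92. The ratio was 6.17 after 12 h (2391 and 2665 CPM against 383 and 437 CPM) and 5.18 after 24 h (2658 and 1913 CPM against 492 and 390 CPM). The untreated libraries of the 5-FU table, at 447 and 486 CPM, lay within the range of the DMSO libraries. Of 52 tested copies of MDM2, 11 were called higher after 6 h of 5-FU, 29 after 12 h and 33 after 24 h. In GENCODE 29 the CPM gene lies on the other strand across part of MDM2, and reads from the 2 genes cannot be told apart.

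The 7 last-exon copies of MDM2 were called higher in all 4 comparisons. The most abundant was an AluY (chr12:69233935-69234223), a member of the youngest large Alu group, with 55.6 and 48.9 CPM with DMSO and 1118 and 1070 CPM with Nutlin. Its log2 fold change was 4.39 ± 0.125 (SE, edgeR adjusted p = 1.11e-09). After 5-FU the AluY stood at 428 and 456 CPM (6 h), 680 and 766 CPM (12 h) and 744 and 434 CPM (24 h), and its 6 DMSO libraries ranged from 99.7 to 145 CPM. It changed by log2 2.05 ± 0.25 after 6 h (edgeR adjusted p = 0.000353), 2.68 ± 0.258 after 12 h (1.24e-06) and 2.25 ± 0.251 after 24 h (8.5e-06). The neighbouring AluSz (chr12:69234616-69234915) rose 22.8-fold after Nutlin, from 39.3 and 41.9 CPM to 939 and 914 CPM, and 3.96-, 7.52- and 4.61-fold after 6, 12 and 24 h of 5-FU, with 666 and 435 CPM at 24 h. A second AluSz (chr12:69234279-69234586) rose 23.4-fold with Nutlin, and an AluJo (chr12:69235059-69235179), of an old Alu group, rose 20.03-fold. Copies of different age and sequence thus had Nutlin values close to each other, with log2 fold changes from 4.27 to 4.54 over the 7.

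An L1MA5A fragment of 133 bp farther along the same exon (chr12:69237117-69237249) stood higher in the DMSO libraries of 12 h than in the other control libraries. With DMSO for 12 h it had 45.2 and 50.5 CPM, against 17.2 to 26.6 CPM in the DMSO libraries of 6 and 24 h and 18.5 and 20.3 CPM untreated. The 5-FU libraries held 100 and 102 CPM after 6 h, 135 and 140 CPM after 12 h, and 127 and 133 CPM after 24 h, so that between 12 and 24 h the drug libraries stood at similar levels and the controls did not. Its log2 fold change was 1.93 ± 0.201 after 6 h, 1.52 ± 0.2 after 12 h and 2.76 ± 0.207 after 24 h (edgeR adjusted p = 0.000204, 5.33e-05 and 9.2e-08). Against the DMSO libraries of 6 and 24 h, the 12 h value was 2.61 (adjusted p = 3.47e-09), and over all alternatives run for it the adjusted p at 12 h ranged from 5.78e-13 to 0.00488. Beyond it in the exon, an L2c (chr12:69238336-69238401) and an AluSx1 (chr12:69238539-69238847) also changed less at 12 h than at 24 h. Their log2 fold changes were 1.89 and 2.76 for the L2c and 1.67 and 1.94 for the AluSx1. The AluY, both AluSz copies and the AluJo before it changed more at 12 h than at 24 h. What set the 12 h controls apart at the L1MA5A was not tested.

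Upstream of the last exon, 67 copies of MDM2 summed to 12.5 and 7.40 CPM with DMSO and to 239 and 277 CPM with Nutlin, a ratio of 25.9. The ratios after 5-FU were 3.74 at 6 h, 11.6 at 12 h and 7.03 at 24 h, against 3.94, 5.81 and 4.90 for the last-exon copies. The 12 h value rests on low controls: the upstream sums with DMSO were 46.6 and 50.2 CPM at 6 h, 22.98 and 27.9 CPM at 12 h, and 63.1 and 54.2 CPM at 24 h. Against the DMSO libraries of 6 and 24 h the 12 h ratio was 5.52 upstream and 5.99 in the last exon, so that the gap between the 2 parts at 12 h was there only with the matched controls. The upstream sums of the 2 libraries of 24 h, 392 and 432 CPM, did not repeat the gap seen in the last exon, where replicate 1 had 2266 CPM and replicate 2 had 1480 CPM. Along the gene, the 11 copies between 7 and 12 kb from the 5' end had the highest ratio of summed CPM among 5 stretches in each of the 4 comparisons, within borders drawn after the values had been seen. They summed to 2.27 and 2.08 CPM with DMSO and to 73.1 and 78.96 CPM with Nutlin, a ratio of 34.9, and to 5.93 and 8.80 CPM with DMSO and 145 and 163 CPM after 12 h of 5-FU, a ratio of 20.9. The ratio was 5.23 after 6 h and 17.2 after 24 h, and 13.8 at 12 h against the DMSO libraries of 6 and 24 h. The 17 copies before 7 kb gave 19.5 with Nutlin and 2.69, 9.82 and 6.62 at the 3 times of 5-FU. Those between 12 and 17 kb gave 30.2 and then 3.69, 8.31 and 5.11, and those from 17 kb to the last exon 21.6 and then 3.17, 7.01 and 4.38. The last exon itself gave 21.7 with Nutlin. Against the DMSO libraries of 6 and 24 h, the 12 h ratios of these upstream stretches were 4.19, 2.63 and 3.50.

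Within that stretch a MIRb (chr12:69210877-69211103), an old tRNA-derived element, had 2.22 and 1.53 CPM with DMSO for 12 h and 33.8 and 38.6 CPM with 5-FU. After 24 h it stood at 38.9 and 50.02 CPM against 1.69 and 2.92 CPM, and after 6 h at 10.5 and 14.1 CPM against 3.75 and 2.34 CPM. It changed by log2 2.01 ± 0.344 after 6 h, 4.25 ± 0.397 after 12 h and 4.25 ± 0.342 after 24 h (edgeR adjusted p = 0.0138, 8.93e-07 and 2.04e-07), and by 4.52 ± 0.3 with Nutlin (2.25e-06). Its 6 h call was lost without DMSO replicate 1 (adjusted p = 0.0652), DMSO replicate 2 (0.351) or 5-FU replicate 2 (0.236), and over the 13 alternatives its 6 h adjusted p ranged from 0.000233 to 0.351. The AluSp just downstream (chr12:69211248-69211542) went from 2.62 and 2.06 CPM with DMSO to 28.0 and 30.7 CPM after 24 h of 5-FU, a rise of 12.5-fold. At 12 h its DMSO libraries held 1 count each and its 5-FU libraries 58 and 63 counts, and the log2 fold change was 5.45 against these and 2.72 against the DMSO libraries of 6 and 24 h. The copy with the largest fitted change after Nutlin was an L2c (chr12:69217149-69217418), with 0 counts in both DMSO libraries and 85 and 69 counts with Nutlin, at least 24.8-fold higher. The untreated library held 8 counts of it. After 12 h of 5-FU it had 14 and 13 counts against 0 and 2, and after 24 h 45 and 87 counts against 12 and 30 (edgeR adjusted p = 0.0164 and 0.0451). The 12 h call was lost without DMSO replicate 1 (0.165), 5-FU replicate 1 (0.0618) or 5-FU replicate 2 (0.0536), and with the DMSO libraries of 6 and 24 h as controls (log2 0.83 in place of 3.29, adjusted p = 0.246), within a range of 0.00821 to 0.246. The 24 h call was lost without DMSO replicate 1 (0.393), DMSO replicate 2 (0.0668), 5-FU replicate 1 (0.0601) or 5-FU replicate 2 (0.167), within a range of 0.0332 to 0.393.

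**Figure D3:**
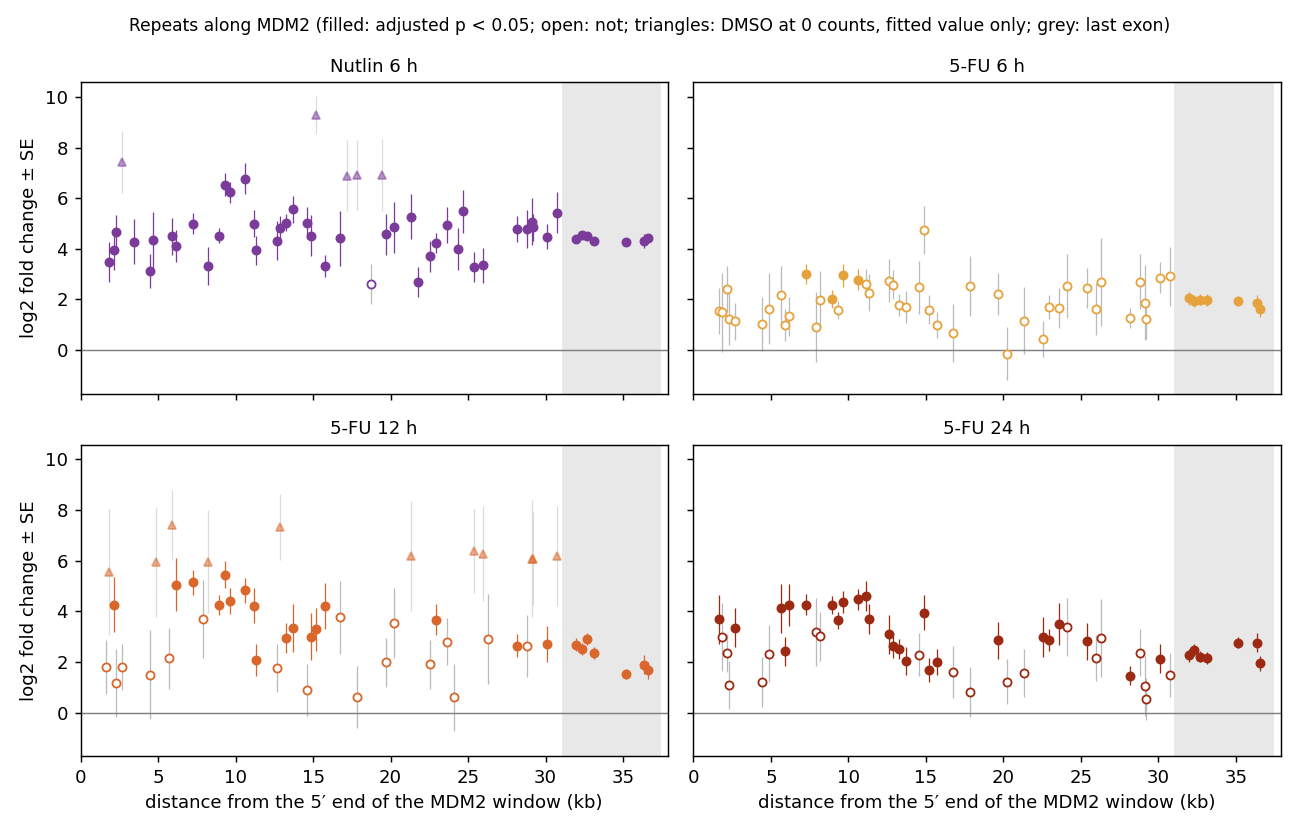
Log2 fold change with its SE (edgeR) of each tested copy along MDM2, by distance from the 5' end of the window in kb, in the 4 drug comparisons, with filled points for adjusted p under 0.05 and the last exon shaded. Triangles mark copies without a count in the DMSO libraries, whose fitted value is no measured ratio. The fitted values run from 2.60 to 9.28 after Nutlin and from 0.61 to 7.41 after 12 h of 5-FU, and the 7 last-exon copies span 4.27 to 4.54 and 1.52 to 2.91.

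PPM1D, a phosphatase that dampens p53 signalling, had no copy with enough counts to test. Its window (chr17:58677540-58741850) held 134 copies in the Nutlin table, which summed to 7.56 and 5.00 CPM with DMSO and 10.9 and 13.9 CPM with Nutlin, a ratio of 1.97 resting on 118 DMSO counts. The ratios of its 156 copies in the 5-FU table were 1.28, 1.98 and 1.32 at 6, 12 and 24 h, and 1.11 at 12 h against the DMSO libraries of 6 and 24 h. The model's last exon runs 1.79 kb beyond the window, so copies there were not members.

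CDKN1A encodes p21, which stops cyclin-dependent kinases, and its window (chr6:36644230-36655120) held 17 copies listed for 5-FU and 16 for Nutlin. The 16 summed to 155 and 140 CPM with DMSO and to 2075 and 2144 CPM with Nutlin, 14.3 times as much. The L2b of the last exon (chr6:36654978-36655104) made up nearly all of it, with 152 and 138 CPM against 2034 and 2098 CPM (log2 fold change 3.83 ± 0.115, SE, edgeR adjusted p = 1.56e-09). After 5-FU the L2b stood at 1329 and 1448 CPM (6 h), 3080 and 3287 CPM (12 h), and 3424 and 1989 CPM (24 h), and its 6 DMSO libraries at 404 to 492 CPM. The rises were 3.15-, 6.63- and 6.27-fold (edgeR adjusted p = 0.00261, 8.07e-07 and 1.25e-06). The 6 h call was lost without DMSO replicate 1 (adjusted p = 0.0974), DMSO replicate 2 (0.103) or 5-FU replicate 2 (0.064), within a range of 2.92e-25 to 0.103 over the alternatives. In the same units of length, the repeats of CDKN1A held 841 CPM per kb of repeat after Nutlin and those of MDM2 216 CPM per kb.

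The other copies of CDKN1A had larger ratios than the L2b, a difference that was not tested. Upstream of the last exon 15 copies summed to 2.38 and 1.77 CPM with DMSO and 41.5 and 46.6 CPM with Nutlin, a ratio of 21.2. After 5-FU the ratio of 16 copies was 5.65 at 6 h, 16.5 at 12 h (14.1 and 12.2 CPM to 197 and 239 CPM) and 7.07 at 24 h. A MIR (chr6:36650893-36651137) had 0 counts in both DMSO libraries and 24 and 20 counts with Nutlin, at least 7.11-fold higher. The same MIR had 3.43 and 4.18 CPM after 6 h of 5-FU, 5.29 and 6.97 CPM after 12 h, and 3.24 and 7.12 CPM after 24 h, each above its DMSO libraries. None of the 3 differences passed the test (edgeR adjusted p = 0.428, 0.0619 and 0.0967). The MIR was called at 12 h against the DMSO libraries of 6 and 24 h (log2 2.44, edgeR adjusted p = 0.00321) and with TMM factors from all rows (0.033). Without 5-FU replicate 1 its log2 fold change at 24 h was 2.21 in place of 1.78. Of 14 tested copies, 6 were called higher after 6 h, 12 after 12 h and 9 after 24 h. A noncoding gene, DINOL, overlaps CDKN1A on the other strand in GENCODE 29.

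FAS, the receptor of the FAS ligand, had 27 copies in the 5-FU table, of which 5 were tested, and 24 in the Nutlin table, of which 1 was tested (chr10:90750280-90775550). The copy tested for both, an L2c of 105 bp in the last exon (chr10:90774362-90774466), went from 10.6 and 12.1 CPM to 47.6 and 50.7 CPM with Nutlin, a rise of 4.33-fold (edgeR adjusted p = 1.53e-06). After 5-FU it stood at 68.1 and 74.9 CPM (6 h), 128 and 128 CPM (12 h), and 136 and 90.9 CPM (24 h), and its DMSO libraries at 27.01 to 39.8 CPM. The L2c rose 2.39-, 3.32- and 3.59-fold (edgeR adjusted p = 0.0199, 5.97e-05 and 2.72e-05). The 6 h call was lost when any 1 of its 4 libraries was left out, with an adjusted p of 0.284 without DMSO replicate 1 and also without DMSO replicate 2, 0.108 without 5-FU replicate 1 and 0.26 without 5-FU replicate 2, within a range of 9.83e-06 to 0.284. Of the 5 tested copies of FAS, 1 was called after 6 h, 3 after 12 h and 1 after 24 h. The additional copies at 12 h, outside the rule for naming, were an L2c (chr10:90768935-90769326) with 9 and 10 counts against 0 and 0, and an AluJr (chr10:90771923-90772234) with 16 and 14 counts against 0 and 3. In the DMSO libraries of 6 and 24 h these copies held 2 to 9 and 3 to 13 counts. Upstream, the 26 copies gave ratios of 3.06, 3.93 and 2.23 at the 3 times, and 1.69 at 12 h against the DMSO libraries of 6 and 24 h. ACTA2, the gene of smooth muscle actin, overlaps FAS on the other strand in GENCODE 29, and its part in these counts was not tested.

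TNFRSF10B, the TRAIL receptor DR5, had 93 copies listed for 5-FU and 85 for Nutlin (chr8:22877640-22926700, minus strand). The 85 summed to 104 and 98.5 CPM with DMSO and to 361 and 390 CPM with Nutlin, a ratio of 3.70. The ratio of the 93 was 1.54, 2.86 and 1.90 after 6, 12 and 24 h of 5-FU, with 625 and 459 CPM at 24 h against 299 and 271 CPM. The DMSO libraries of 12 h were low here, at 206 and 242 CPM against 271 to 320 CPM in those of 6 and 24 h. Against the latter the 12 h ratio was 2.15. Its 2 last-exon copies were the ones called after 12 and 24 h, out of 7 tested. The AluJo of the pair (chr8:22879490-22879761), outside the rule for naming, rose 3.68-fold after Nutlin and 3.03- and 2.03-fold after 12 and 24 h, with 229 and 138 CPM at 24 h. The more abundant of them, an AluSx1 (chr8:22877928-22878229), had 64.6 and 56.2 CPM with DMSO and 216 and 219 CPM with Nutlin (3.60-fold, edgeR adjusted p = 3.66e-07). After 5-FU the AluSx1 had 263 and 281 CPM at 6 h (DMSO 177 and 189), 365 and 354 CPM at 12 h (DMSO 111 and 136), and 349 and 240 CPM at 24 h (DMSO 150 and 137). It did not pass the test at 6 h (edgeR adjusted p = 0.569) and rose 2.91-fold at 12 h (0.000107) and 2.05-fold at 24 h (0.00508). Against the DMSO libraries of 6 and 24 h, its log2 fold change at 12 h was 1.15 in place of 1.54 (edgeR adjusted p = 0.000163). The 24 h call was lost without DMSO replicate 1 (adjusted p = 0.0555) or DMSO replicate 2 (0.105), within a range of 4.42e-06 to 0.194. No copy was called after 6 h, where 2 of 7 had an unadjusted p under 0.05 and DESeq2 called 0. An ERVL-B4 internal fragment of 1917 bp (chr8:22894365-22896281) had 1 and 4 counts with DMSO and 16 and 24 counts with Nutlin (edgeR adjusted p = 0.0243), a call lost without Nutlin replicate 2 (0.139), within a range of 0.00112 to 0.139.

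TP53INP1, which takes part in stress-induced death and autophagy, had 30 copies listed for 5-FU and 29 for Nutlin (chr8:95938200-95961640, minus strand). NDUFAF6 overlaps TP53INP1 on the other strand in GENCODE 29, and its part in these counts was not tested. The 29 summed to 10.7 and 10.4 CPM with DMSO and to 69.4 and 70.0 CPM with Nutlin, a ratio of 6.60. The ratio of the 30 after 5-FU was 2.91 at 6 h, 4.63 at 12 h and 2.32 at 24 h (69.3 and 70.0 CPM against 30.9 and 29.1 CPM), lowest at the last time. A MIR in the last exon (chr8:95941490-95941586) had 6.91 and 4.59 CPM with DMSO and 41.1 and 36.6 CPM with Nutlin, a rise of 6.75-fold (edgeR adjusted p = 2.58e-06). After 5-FU it stood at 31.1 and 35.7 CPM (6 h), 54.4 and 56.0 CPM (12 h), and 35.0 and 28.3 CPM (24 h), and its DMSO libraries at 9.16 to 14.5 CPM. Both 24 h libraries were below both 12 h libraries, a difference that was not tested. The test of the 24 h effect minus the 6 h effect, which leaves out 12 h, did not pass (log2 difference -0.51 ± 0.382, edgeR adjusted p = 0.789). The rises were 3.29-, 4.81- and 2.31-fold (edgeR adjusted p = 0.00782, 4.3e-05 and 0.0105). The 6 h call was lost without DMSO replicate 1 (0.209), DMSO replicate 2 (0.112) or 5-FU replicate 2 (0.128), and the 24 h call without DMSO replicate 1 (0.136) or DMSO replicate 2 (0.0818). The ranges over the alternatives were 2.82e-06 to 0.209 and 0.000455 to 0.136. Both last-exon copies of TP53INP1 were called at all 3 times of 5-FU, out of 5 tested. An internal fragment of the endogenous retrovirus MER21 (chr8:95947688-95949418) had 0 and 1 counts with DMSO and 21 and 37 counts with Nutlin (edgeR adjusted p = 0.0031), and it was not called after 5-FU.

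RRM2B supplies deoxynucleotides for DNA repair, and its window (chr8:103216720-103251350, minus strand) held 48 copies listed for 5-FU and 44 for Nutlin. The 44 summed to 56.2 and 55.7 CPM with DMSO and to 193 and 180 CPM with Nutlin, a ratio of 3.33. The ratio of the 48 after 5-FU was 1.76, 3.31 and 2.91 (540 and 324 CPM at 24 h against 147 and 150 CPM), so that the 12 h value came near that of Nutlin, whereas for MDM2 it was 6.17 against 21.9. All 3 tested copies lay in the last exon. The DNA transposon MER103C (chr8:103219275-103219545) went from 29.7 and 30.3 CPM to 95.3 and 96.6 CPM with Nutlin (3.20-fold, edgeR adjusted p = 1.05e-06). It stood at 109 and 127 CPM after 6 h of 5-FU (DMSO 66.0 and 77.5), 289 and 291 CPM after 12 h (DMSO 74.5 and 76.9), and 293 and 158 CPM after 24 h (DMSO 84.3 and 75.9). The 6 h difference did not pass (edgeR adjusted p = 0.482), and the later rises were 3.83- and 2.81-fold (3.41e-05 and 0.00052). With only the compared libraries in the fit, the 24 h value missed the threshold (0.0627), within a range of 1.17e-09 to 0.0627. The neighbouring MIR (chr8:103219968-103220133) rose 3.49-, 2.99- and 3.24-fold after Nutlin and after 12 and 24 h of 5-FU, with 157 and 87.97 CPM at 24 h. At 6 h all 3 copies had an unadjusted p under 0.05, none was called by edgeR, and DESeq2 called 1.

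ZMAT3, an RNA-binding regulator of splicing and RNA decay, had 72 copies listed for 5-FU and 65 for Nutlin (chr3:178735000-178790070, minus strand). The sums of the 65 were 41.8 and 42.6 CPM with DMSO and 88.0 and 83.8 CPM with Nutlin, a ratio of 2.04, and the ratio of the 72 after 5-FU was 1.42, 1.91 and 1.97. Its most abundant copy, an L1ME2z in the last exon (chr3:178737119-178737392), had 21.2 and 20.5 CPM with DMSO and 45.0 and 40.0 CPM with Nutlin (2.04-fold, edgeR adjusted p = 0.000313). In the 5-FU table its DMSO level differed between times, at 123 and 96.3 CPM (6 h), 94.9 and 93.3 CPM (12 h), and 70.8 and 70.9 CPM (24 h), with 65.1 and 64.0 CPM untreated. With 5-FU it stood at 144 and 149 CPM, 129 and 147 CPM, and 126 and 117 CPM. The drug libraries lay above their controls at each time, and the difference passed at 24 h alone of the 3 (1.72-fold, edgeR adjusted p = 0.0217). This call was lost without DMSO replicate 1 (0.18) or DMSO replicate 2 (0.181), within a range of 0.000428 to 0.285. At 12 h, with an adjusted p of 0.0797, the range was 0.0118 to 0.425. Of 8 tested copies of ZMAT3, 0 were called after 6 h, 2 after 12 h and 3 after 24 h, and at 6 h 3 had an unadjusted p under 0.05 and DESeq2 called 0. All the 5-FU calls in ZMAT3 were in the last exon. Its AluSx (chr3:178740949-178741050) and AluY (chr3:178741499-178741807), outside the rule for naming, were called after 12 h (2.68- and 2.95-fold) and after 24 h (2.36- and 2.08-fold), and with Nutlin they rose 2.11- and 1.62-fold. The AluY stood at 140 and 138 CPM after 12 h against 46.7 and 47.4 CPM, with no overlap. Upstream of the last exon, the 69 copies gave a ratio of 0.945 after 12 h, with overlapping libraries, and of 2.27 after 24 h (15.4 and 22.9 CPM to 27.8 and 59.0 CPM). An internal fragment of HERV17 (chr3:178772922-178776262) had 3 and 2 counts with DMSO and 13 and 17 counts with Nutlin (edgeR adjusted p = 0.0489), and kept its call under 3 of 13 alternatives. Without DMSO replicate 1 its adjusted p was 0.056, without DMSO replicate 2 it was 0.131 and without Nutlin replicate 2 it was 0.27, within a range of 0.0324 to 0.367.

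The windows of XPC, DDB2 and SESN1 held no called copy, with 1 exception each in XPC and SESN1 under an alternative at 12 h. XPC, which recognises DNA damage in nucleotide excision repair, had 50 copies (chr3:14186640-14220290) that summed to 8.75 and 9.59 CPM with DMSO and 17.2 and 21.0 CPM with Nutlin, a ratio of 2.08. Its ratios after 5-FU were 1.52, 1.51 and 1.09, with overlapping libraries at 24 h. The most abundant copy of XPC, an L1MB5 of 2681 bp (chr3:14202556-14205236), had 1.40 and 2.19 CPM with DMSO and 3.53 and 2.05 CPM with Nutlin, and did not pass in any of the 4 drug comparisons (edgeR adjusted p = 0.38 to 0.925). Of the 5 copies of XPC tested with 5-FU none was called, 1 had an unadjusted p under 0.05 at 12 h, and DESeq2 called 0. That copy, an L2c (chr3:14218895-14219614), had 12 and 16 counts against 4 and 1, with a log2 fold change of 2.09 (edgeR adjusted p = 0.0586) and was called with TMM factors from all rows (0.0316), within a range of 0.0316 to 0.558. DDB2, a partner of XPC in damage recognition, had 60 copies listed for 5-FU and 53 for Nutlin (chr11:47236490-47260770), the 53 with sums of 7.56 and 9.07 CPM with DMSO and 8.72 and 14.2 CPM with Nutlin. The DDB2 libraries overlapped after Nutlin and did not after 5-FU, where the ratios were 1.78, 1.83 and 1.101. Its Tigger19a copy (chr11:47258643-47258891) held 7 and 13 counts with DMSO and 9 and 20 counts with Nutlin (edgeR adjusted p = 0.672). None of the 5 copies of DDB2 tested with 5-FU was called, 1 had an unadjusted p under 0.05 at 6 h, and DESeq2 called 0. SESN1, a sestrin that restrains growth signalling, had 143 copies listed for 5-FU and 102 for Nutlin (chr6:109307600-109416050), and ratios of 1.63 with Nutlin and 1.02, 1.60 and 1.36 with 5-FU. Its 1 testable copy, an L1MC2 (chr6:109320769-109321653), had 2.06 and 4.65 CPM after 12 h against 1.11 and 0.765 CPM (edgeR adjusted p = 0.19), and was called against the DMSO libraries of 6 and 24 h (log2 2.01, adjusted p = 0.042), within a range of 0.042 to 1.

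Whether the response to 5-FU at a copy differed between 24 h and 6 h was tested as the difference of the 2 effects. Of 105 copies, 1 was called higher and 0 lower, where 0.0865% of all rows were called higher and 0.299% lower, and 10 and 0 were so at an unadjusted p under 0.05. The called copy was the MIRb of MDM2 between 7 and 12 kb, with a log2 difference of 2.23 ± 0.496 (edgeR adjusted p = 0.0496). DESeq2 called 3 copies, all in MDM2 and all higher, the MIRb, the AluSp beside it (2.07, adjusted p = 0.0319) and the L1MA5A of the last exon (0.84, 0.0464). With rows kept only at 10 or more counts in every library, 5 of 18 copies were called, where 2.1% of all rows were called higher, 1 each in MDM2 and CDKN1A, 1 in FAS and 2 in RRM2B. The L2b of CDKN1A then had a difference of 1.08 (edgeR adjusted p = 0.00728), against 0.99 (0.333) among all tested rows, within a range of 0.00325 to 0.655, the lower end being the value without 5-FU 24 h replicate 2. All 18 copies tested under that filter lay in the last exon.

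**Figure D4:**
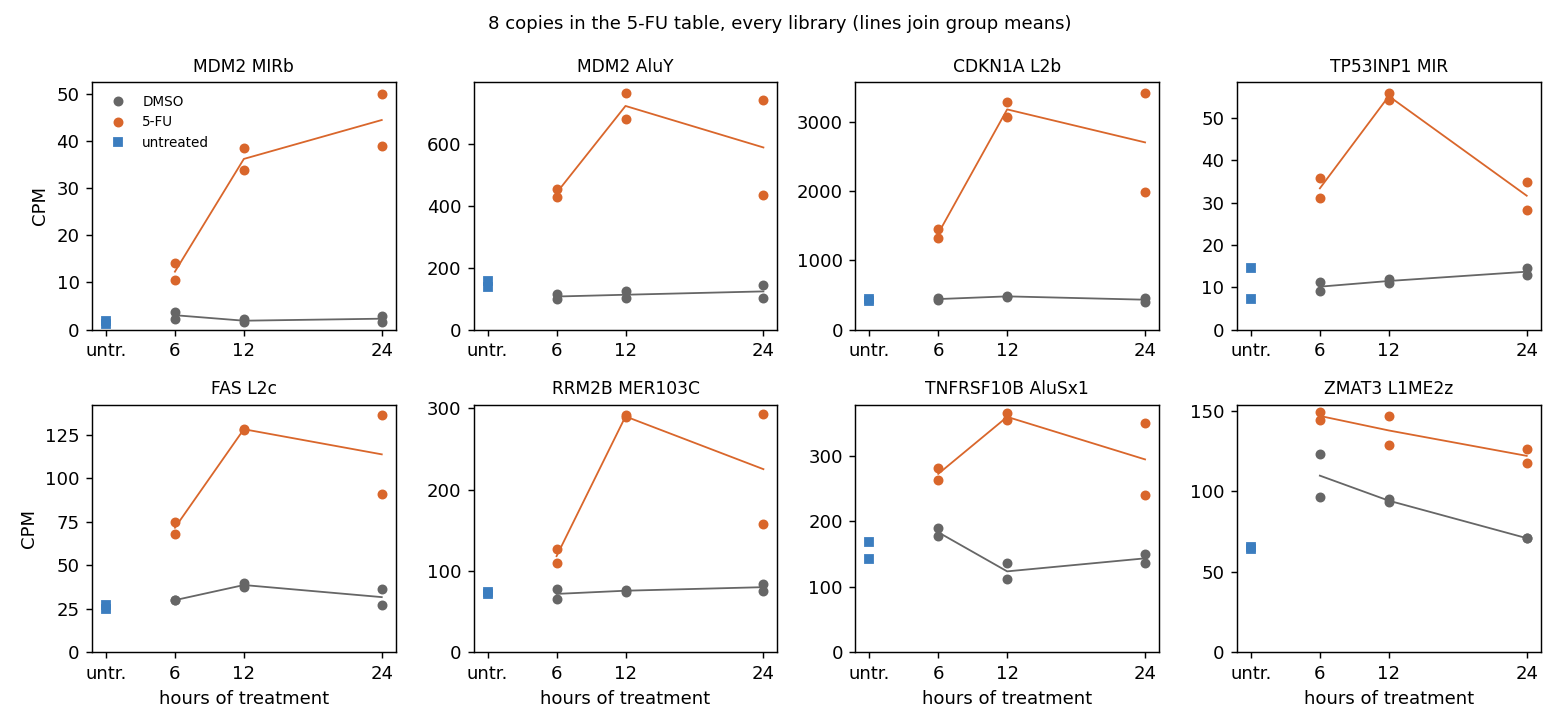
CPM of 8 copies in each library of the 5-FU table, by hours of treatment, with DMSO in grey, 5-FU in orange, untreated in blue and lines through the group means. The MIRb of MDM2 went on from 33.8 and 38.6 CPM at 12 h to 38.9 and 50.02 CPM at 24 h, whereas the MIR of TP53INP1 was lower at 24 h (35.0 and 28.3 CPM) than at 12 h (54.4 and 56.0 CPM).

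The DMSO groups gave the background of handling and vehicle. Between the DMSO groups of the 5-FU table and the untreated cells, 0 of 105 copies were called, where 0.643% of all rows were called higher and 1.02% lower. At an unadjusted p under 0.05, 5 copies were higher (the MIR of CDKN1A, the L1MA5A and an L2c of MDM2, and the L1ME2z and AluSx of ZMAT3) and 1 was lower, an AluSx4 of MDM2. DESeq2 called 2 copies higher, the L1MA5A of MDM2 (log2 0.58, adjusted p = 0.0286) and the L1ME2z of ZMAT3 (0.48, 0.0201), the same fragments whose DMSO levels differed between times. With 10 or more counts required in every library, 5 of 18 copies were called higher by edgeR, where 6.6% of all rows were: the L1MA5A of MDM2, the L2c of FAS, and the L1ME2z, AluSx and AluY of ZMAT3.

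Calls were found in each of the 6 repeat classes with more than 1 tested copy. After Nutlin 40 of 41 tested Alu copies, 11 of 11 MIR, 9 of 11 L1, 7 of 8 L2, 9 of 10 DNA transposons and 5 of 6 LTR copies were called higher. Of all rows tested 5.36% were called higher, and many of these copies passed the filter through the Nutlin libraries. After 24 h of 5-FU the counts were 23 of 41 Alu, 9 of 15 MIR, 4 of 17 L1, 7 of 13 L2, 8 of 11 DNA transposons and 1 of 7 LTR copies. Of all rows tested 2.42% were called higher at that time. The share of each class called outside the windows was not counted. The classes are spread unevenly over the windows and the exons, with 9 of the 19 last-exon copies being Alu and 0 being LTR, so that class cannot be told apart from position and depth here.

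Calls were also found beyond the 3' border of the windows, where other genes lie as well. In the 50 kb downstream of the genes, 39 of 43 tested rows were called higher after Nutlin, and 10, 22 and 23 of 70 after 6, 12 and 24 h of 5-FU, where 5.36% of all rows were called higher after Nutlin and 0.0896%, 5.44% and 2.42% at the 3 times of 5-FU. In the 50 kb upstream, the counts were 2 of 14 after Nutlin and 2 of 41 after 12 h of 5-FU, with 0 of 41 after 6 h and 24 h by edgeR (1 and 1 at an unadjusted p under 0.05) and 0 by DESeq2. The 2 of 41 at 12 h is near the share of all rows. MDM2 supplied most of the downstream calls, with 27 of 27 downstream rows called higher after Nutlin and 8, 14 and 14 of 21 after 5-FU. The median log2 fold change was 4.98 downstream of MDM2 after Nutlin and 0.09 over its 8 upstream rows. The last exon of the longest MDM2 model runs 5.13 kb beyond the window, and the rows downstream were not split at its end. For PPM1D 3 of 4 downstream rows were called after Nutlin, and for ZMAT3 2 of 2. TNFRSF10B had calls on both sides after Nutlin, with 5 of 7 rows downstream (median log2 fold change 3.37) and 2 of 3 rows upstream (3.69), and these 2 were all the upstream calls.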

How the data were processed

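Total RNA of IMR90 cells was sequenced in 18 samples of 9 groups, and the authors deposited 2 tables of raw read counts per repeat copy, one for Nutlin and one for 5-FU, with copies named by hg19 position. The submitters' processing notes name hg19, Trimmomatic 0.32, cutadapt 1.10, Bowtie2, edgeR and DESeq2. How reads with several alignments or the strand were treated is not given in the sources used here. Beside the Nutlin libraries, both columns of untreated cells held equal values (0 rows differ) and were counted as 1 sample. The tables were tested separately, and 0 columns lacked a sample.

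Each table was fitted whole with edgeR 4.0.16 (R 4.3.3, limma 3.58.1): filterByExpr (in the Nutlin table over its DMSO and Nutlin libraries), TMM, glmQLFit with all groups, glmQLFTest, Benjamini-Hochberg adjustment over all tested rows, threshold 0.05. The script was tested on simulated data. Window sums and CPM used Python 3.11.15 with pandas 2.3.3 and numpy 2.4.6. A fold against DMSO libraries all at 0 is a bound, set against 3 counts per library. Library totals ran from 2412334 to 11880265 counts over both tables.

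The members and lists were chosen with earlier results of these data known. Copies are named by rule: the most abundant tested copy of each window, the 3 with the smallest p in each comparison, those called in all 4 comparisons (up to 5), and the largest Nutlin change of each window. GENCODE 29 (GRCh38) gave only lengths and offsets from the 5' end, with no conversion of coordinates, and promoters came from RefSeq (GRCh38.p14). Alternatives were other normalizations, filters, thresholds and fits, DESeq2 1.42.0, a replicate block, each library left out, the DMSO libraries of 6 and 24 h in place of those of 12 h, and TMM factors from all rows. The last, and window sums against the other DMSO libraries, were added after seeing the data.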

Additional observations from a re-analysis of the deposited data

Results flagged for a closer look

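The MIRb of MDM2 at chr12:69210877-69211103 was the copy whose response to 5-FU differed between 24 h and 6 h by a test of the difference itself. The 24 h effect minus the 6 h effect was 2.23 on the log2 scale (SE 0.496, edgeR adjusted p = 0.0496). Both 24 h libraries (38.9 and 50.02 CPM) lay above both 6 h libraries (10.5 and 14.1 CPM), and the DMSO libraries of both times lay between 1.69 and 3.75 CPM. The call held under 3 of 17 alternatives and was lost under 14, with adjusted p from 0.00564 to 0.379. Leaving out 1 library gave 0.379 and 0.0649 (DMSO 6 h replicates 1 and 2), 0.301 and 0.0688 (DMSO 24 h replicates 1 and 2), 0.205 and 0.081 (5-FU 6 h replicates 1 and 2) and 0.105 (5-FU 24 h replicate 2).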

How the results depend on the processing

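No call of a named copy changed direction under any alternative run. With at least 10 counts required in every library, fewer copies were tested. Of 19 copies 18 were called after Nutlin, and of 18 copies 11, 18 and 18 after 6, 12 and 24 h of 5-FU. The share of all rows called higher was then 7.58% after Nutlin and 0.361%, 17.3% and 11.7% at the 3 times. For the 24 h effect minus the 6 h effect 5 of 18 were called, and for DMSO against untreated 5 of 18. The shares of all rows called higher were 2.1% and 6.6%. At an adjusted p under 0.01 the 6 h and 24 h counts were 12 and 34 and the difference of effects had 0. Of all rows 0.0456% and 0.97% were called higher at 6 h and 24 h under that threshold. Without one replicate the counts ran from 72 to 79 (Nutlin), 7 to 14 (6 h), 35 to 44 (12 h), 30 to 44 (24 h), 0 to 2 (difference of effects) and 0 (DMSO against untreated). The difference of effects also had 0 with library size alone, without structural RNA, with only the compared libraries, with TMM factors from all rows and in the fit with the replicate block, and DESeq2 gave 3. For DMSO against untreated DESeq2 gave 2, and without a filter 1 was called, an SVA_F of SESN1, lower. Of 58 calls of named copies, 45 were kept under every alternative and 13 were lost under some, and the cause was not tested. Over all rows DESeq2 called 938 after Nutlin against 2041.

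The replicate numbers gave little sign of pairing, with correlations of deviations of -0.01, -0.00, -0.02 and 0.15 in the 4 comparisons. Noise at low counts weakens such correlations, so they cannot exclude pairing. With the replicate block 78, 20, 51 and 52 copies were called. Library size alone shifted the median of all rows by -0.14 (Nutlin), -0.32 (12 h) and -0.15 (24 h), and TMM factors from all rows by 0.12 (6 h) and 0.23 (12 h). Depth left 588 copies of the Nutlin table and 665 of the 5-FU table untested.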
